A study of Homo sapiens with 30 samples.

Results

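Condensin is the protein complex that folds chromatin into the compact chromosomes of mitosis, and 8 human genes encoding subunits of condensin I and condensin II were followed here. SMC2, SMC4, NCAPD2, NCAPG, NCAPH, NCAPD3, NCAPG2 and NCAPH2 were taken by symbol, and each matched 1 identifier among the 60617 genes listed for every library. All 8 passed the filter on low counts in both cell lines, so every one entered every test. RNA was sequenced from HCT116 and SW480, established human colorectal cancer cell lines. Each line was transfected with 10 nM of siBRD8-6 or siBRD8-36 against BRD8, of siTIP60-2 or siTIP60-11 against TIP60, or of the control siRNA siControl, and was collected 48 h later. BRD8 is a bromodomain subunit of the TIP60 complex, and TIP60, encoded by KAT5, is the histone acetyltransferase of that complex. The 10 groups had 3 libraries each, 30 in all. Whether the libraries of a group came from separate cultures is not stated in the labels, and the p-values therefore reflect the scatter of these particular samples, part or all of which may be technical.

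SMC2 and SMC4 are long coiled-coil ATPases that join at a hinge and are shared by both condensins. A kleisin subunit, NCAPH in condensin I and NCAPH2 in condensin II, links their ATPase heads and carries a pair of HEAT-repeat subunits, NCAPD2 and NCAPG in condensin I and NCAPD3 and NCAPG2 in condensin II. Condensin II is present in the nucleus during interphase and acts from early mitosis, whereas condensin I reaches the chromosomes after the nuclear envelope breaks down. Many mitotic genes are transcribed most strongly late in the cell cycle, through promoter elements such as the cell cycle genes homology region, bound by MuvB complexes, and the CCAAT box, bound by NF-Y. In RNA from whole cultures, fewer cells in such a phase and less RNA per cell cannot be told apart.

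The promoters are shown first because most of these genes shared a short element that their choice did not use. RefSeq windows on GRCh38.p14, from 250 bases before to 50 bases after a transcription start, were held for 7 of the 8 genes, in 10 windows. NCAPH2 had none. The core TTTGAA of the cell cycle genes homology region was searched on both strands and lay in a window of 6 of these 7 genes, all but NCAPH. It lay in 15.2% of all 35116 windows and in a window of 18.2% of all 27305 genes. The stretches below run up to 22 bases to either side of the match, which stands in capitals, and TTCAAA is the same element on the opposite strand. They lie at chr9:104094284-104094333 (+ strand) for SMC2, chr3:160399553-160399602 (+ strand) for SMC4, chr12:6493935-6493984 (+ strand) for NCAPD2, chr4:17810922-17810971 (+ strand) for NCAPG, chr11:134223943-134223992 (- strand) for the second start of NCAPD3 and chr7:158704755-158704791 (- strand) for NCAPG2.
SMC2: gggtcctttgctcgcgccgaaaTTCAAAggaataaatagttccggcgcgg
SMC4: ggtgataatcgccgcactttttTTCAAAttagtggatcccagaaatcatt
NCAPD2: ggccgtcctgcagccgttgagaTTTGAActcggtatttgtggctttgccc
NCAPG: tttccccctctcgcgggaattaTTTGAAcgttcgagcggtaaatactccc
NCAPD3: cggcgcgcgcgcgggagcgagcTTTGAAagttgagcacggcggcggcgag
NCAPG2: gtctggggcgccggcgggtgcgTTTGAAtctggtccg

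The element began 145 bases before the start in NCAPD2, 75 bases before it in SMC4 and 35 bases before it in NCAPG. It spanned the start in SMC2 and NCAPD3, beginning 3 bases before it, and began 35 bases after it in NCAPG2. The variant core TTCGAA, searched on both strands, had no match in the 10 windows and lay in 1.45% of all windows. The CCAAT box, searched on both strands, had 4 matches in NCAPD2, 2 in the second window of NCAPD3 and 1 in NCAPH, and lay in 34.6% of all windows. The E2F words TTTCCCGC, TTTCGCGC, TTTGCCGC and TTTGGCGC, searched on both strands, had 1 match, TTTCCCGC in NCAPD3, and lay in 3.32% of all windows. No match overlapped another. Only the exact letters given were searched, so other forms of these elements would have been missed. NCAPH is shown as the promoter without a TTTGAA match, by the stretch around its CCAAT box, in capitals, at chr2:96335632-96335680 (+ strand).
NCAPH: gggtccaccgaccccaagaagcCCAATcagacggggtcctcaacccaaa

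**Figure D1:**
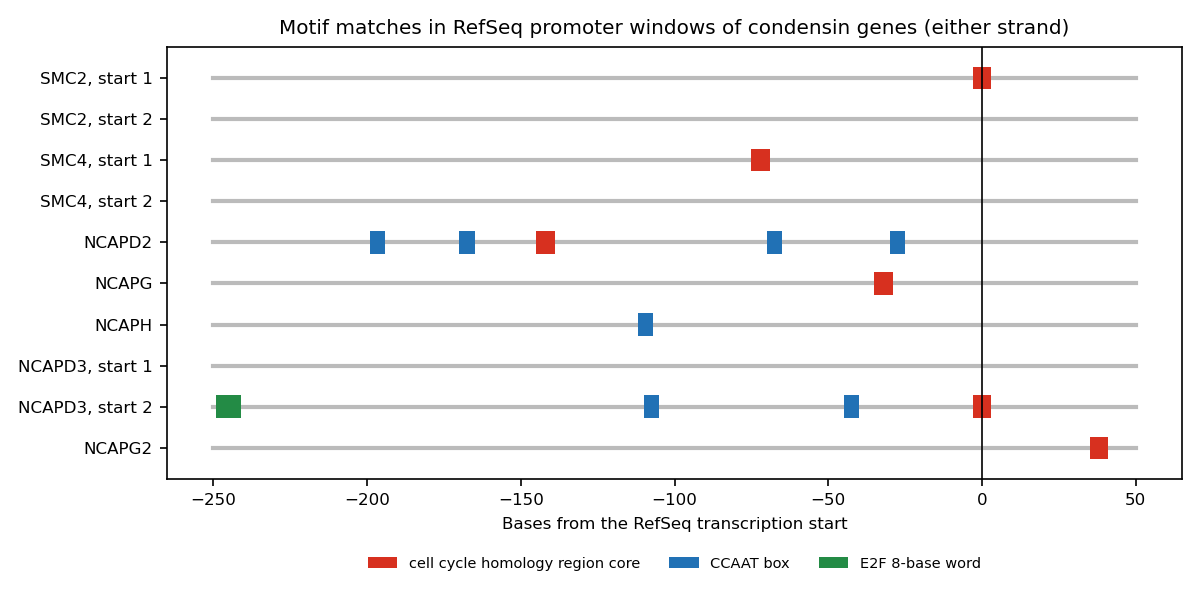
Motif matches on either strand in the 10 RefSeq promoter windows of 7 condensin genes, with the distance in bases from the transcription start on the x axis and 1 window a row. Red blocks mark TTTGAA, which lies in 6 of the 7 genes, blue blocks the CCAAT box and the green block the E2F word of NCAPD3.

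The libraries held 13.4 to 18.6 M counts in HCT116 and 7.07 to 11.7 M counts in SW480, lowest with siControl in SW480 (7.07 to 7.69 M counts). BRD8 fell to 20.8% with siBRD8-6 and 14.2% with siBRD8-36 of its siControl level in HCT116, and to 24.5% and 21.2% in SW480. KAT5 fell to 7.36% with siTIP60-2 and 9.91% with siTIP60-11 in HCT116, and to 7.999% and 13.6% in SW480. With siBRD8-36, KAT5 also stood at 80.5% in HCT116 and at 75.0% in SW480. In TPM, a level scaled to transcript length and library size, 10 of 10 epithelial markers summed to 6058 to 7322 with the 4 siRNAs against 3740 to 3753 with siControl in HCT116, and to 3756 to 5484 against 3215 to 3375 in SW480, where KRT20 was at 0 in 4 of 5 groups. The 6 fibroblast markers summed to 28.2 to 29.7 TPM with siBRD8-36 against 7.28 to 11.7 TPM with siControl in HCT116, nearly all of it COL1A1, and to 6.64 to 10.2 TPM with siBRD8-6 against 3.30 to 4.09 TPM with siControl in SW480. DCN was at 0 in both siRNA groups. The 6 leukocyte markers summed to 21.8 to 28.4 TPM with siTIP60-2 against 6.07 to 9.49 TPM with siControl in HCT116, mostly CD68, with CD3E and MS4A1 at 0. In SW480 they summed to 5.43 to 6.65 TPM with siBRD8-36 against 0.570 to 1.72 TPM with siControl, again mostly CD68, with PTPRC and MS4A1 at 0. The 4 endothelial markers summed to at most 1.11 TPM in any library, with CDH5 at 0. The mitochondrially encoded share of counts was 2.01 ± 0.333% with siBRD8-6, 2.30 ± 0.390% with siBRD8-36, 2.35 ± 0.195% with siTIP60-2 and 2.94 ± 0.185% with siTIP60-11, against 1.61 ± 0.0516% with siControl in HCT116 (SD, n = 3). In SW480 it was 4.17 ± 0.146% with siTIP60-11, against 2.74 ± 0.0570% with siControl (SD, n = 3). One library stood apart over all genes: HCT116 siControl replicate 2 differed from the other controls by a chi-square per gene of 15.9 and 21.3, while all other replicate pairs lay at 9.56 or lower. The part of these differences in the results was not tested.

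Of the 8 genes, 4 share exon bases with a gene on the opposite strand in GENCODE release 29. LCORL covers 33.1% of the exon bases of NCAPG, TRIM59 18.5% and IFT80 7.18% of those of SMC4, MRPL51 7.49% of those of NCAPD2, and JAM3 5.10% of those of NCAPD3. The library kit was strand-specific, but the strand setting of the counting is not given in the sources used here, so the values of these 4 genes may include reads of their partners.

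With siControl, the subunit genes were transcribed at unequal levels per transcript length. In HCT116, NCAPD2 stood first with 155 ± 29.4 TPM, then SMC4 with 120.4 ± 9.04, NCAPG with 84.1 ± 22.2 and NCAPH2 with 68.7 ± 4.83 TPM, and NCAPH had 52.3 ± 5.46, NCAPG2 45.3 ± 13.4, NCAPD3 41.8 ± 9.02 and SMC2 16.9 ± 1.84 TPM (SD, n = 3). The library ranges of neighbours in this order overlapped except between SMC4 and NCAPG, between NCAPH2 and NCAPH, and between NCAPD3 and SMC2. In SW480, SMC4 stood first with 169.8 ± 19.6 TPM and NCAPD2 second with 62.6 ± 2.76 TPM, each apart from its neighbours. NCAPG followed with 32.5 ± 1.43, NCAPH2 with 29.7 ± 2.43, NCAPH with 22.2 ± 5.61, NCAPD3 with 18.9 ± 2.22, NCAPG2 with 17.0 ± 0.776 and SMC2 with 16.7 ± 1.29 TPM (SD, n = 3), and of the neighbours among these 6 the ranges of NCAPH2 and NCAPH alone were apart.

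Between the lines with siControl, 6 of the 8 genes were higher in HCT116 than in SW480, against 41.6% of the 17411 genes tested in the fit of all 30 libraries, and 1 was lower, against 37.0%. That 1 lower gene is a smaller share than that of all genes. A gene is called higher or lower here and below where the Benjamini-Hochberg adjusted p of edgeR's quasi-likelihood test, over all genes tested, lies under 0.05. The 6 were all the subunits particular to condensin I or condensin II, with log2 differences between 0.81 for NCAPH and 1.05 for NCAPD3. SMC4 differed the other way, by -0.75 (SE 0.050, adjusted p = 2.08e-15). SMC2 had -0.16 (SE 0.084, adjusted p = 0.0840), and was called lower in HCT116 in 18 of the 30 fits that left out 1 library and by DESeq2 (-0.26, adjusted p = 0.00295).

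**Figure D2:**
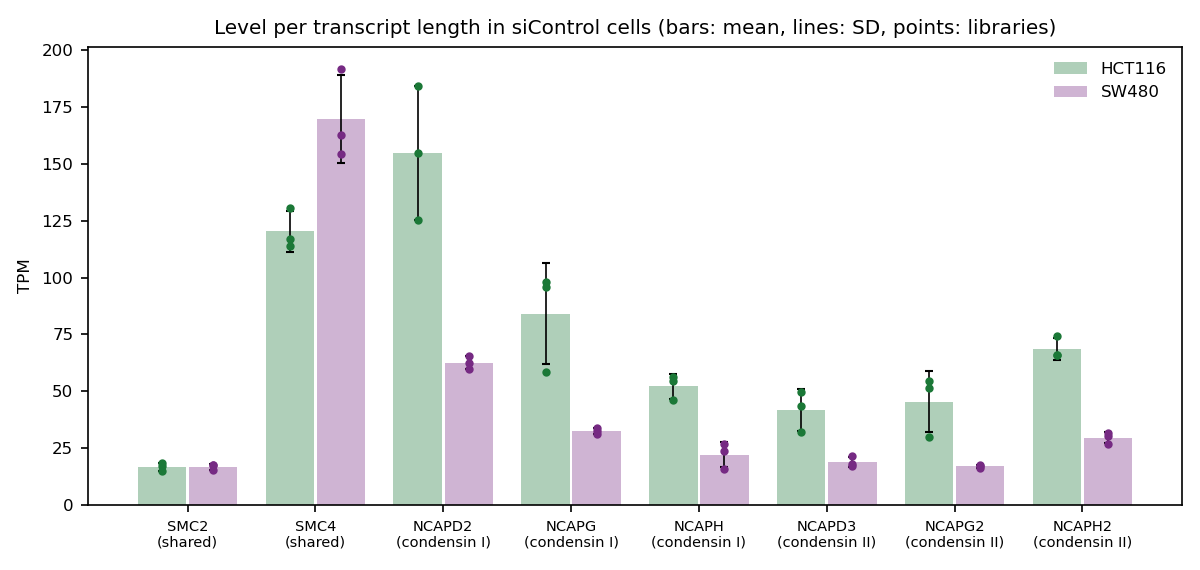
TPM of each condensin gene in cells with siControl, HCT116 left and SW480 right of each pair, with bars for means, lines for the SD and points for the 3 libraries. SMC4 is higher in SW480 (120.4 ± 9.04 TPM in HCT116 and 169.8 ± 19.6 TPM in SW480), SMC2 is at a like level in both, and the other 6 genes are higher in HCT116.

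Depletion of BRD8 was followed by lower levels of most condensin genes in both lines. With both siRNAs, 5 of the 8 were lower than with siControl in HCT116, against 12.2% of the 15919 genes tested, and 6 of the 8 were lower in SW480, against 14% of 15277 genes. None was called higher in either line, against 12.2% of all genes in HCT116 and 12.9% in SW480. The median log2 fold change of the 8 was -0.78 in HCT116, against -0.022 over all genes, and -0.75 in SW480, against -0.0036 over all genes. These are means over unlike siRNAs. The median of the 8 was -0.24 with siBRD8-6 and -1.33 with siBRD8-36 in HCT116, and -0.51 and -1.06 in SW480. By single siRNA, siBRD8-36 lowered 8 genes in HCT116 (29.4% of all genes) and 8 in SW480 (28.5%), and siBRD8-6 lowered 5 in HCT116 (25.7%) and 6 in SW480 (26.3%). On log2(TPM + 1), tested with limma, the genes lower with both BRD8 siRNAs were 3 in HCT116, SMC4, NCAPH and NCAPD3, and 1 in SW480, SMC4, where that scale moved the median of all genes by 0.22. With siBRD8-6 alone it called 3 lower and 0 higher in HCT116, and 1 lower and 1 higher in SW480. In either direction, it called 2313 of 15662 genes with both BRD8 siRNAs in HCT116 and 3535 of 16383 in SW480. With siBRD8-6 in SW480 it called 6869 of 16383 genes, and the median of all genes moved by 0.22. Values below are CPM, counts scaled to the normalized library size, in the order of the replicate numbers.

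SMC2 (ENSG00000136824, chr9:104094260-104141417, + strand), an ATPase of both condensins, had 46.4, 46.0 and 46.3 CPM with siBRD8-6 and 19.8, 24.8 and 21.1 CPM with siBRD8-36, against 60.6, 52.5 and 55.4 CPM with siControl in HCT116. Every library with a BRD8 siRNA was below every control library. The mean log2 fold change of both siRNAs was -0.83 (SE 0.064, adjusted p = 0.00668), with an adjusted p of 0.0596 without siControl replicate 1. In SW480 it had 55.6, 66.3 and 57.1 CPM with siBRD8-6 and 28.2, 29.3 and 37.9 CPM with siBRD8-36, against 68.2, 66.9 and 66.8 CPM with siControl. The groups were again apart, but the second siBRD8-6 library came close to the controls. The call for both siRNAs was missed in SW480, at -0.63 (SE 0.076, adjusted p = 0.148), and made without that library (-0.67, adjusted p = 0.0426). In TPM the siBRD8-6 libraries of SW480 had 17.8, 22.2 and 18.4, above all controls at 17.4, 15.2 and 17.5, the opposite direction. That scale moved the median of all genes by 0.22 for siBRD8-6 in SW480.

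SMC4 (ENSG00000113810, chr3:160399274-160434962, + strand), the partner of SMC2, had 189, 190.0 and 195 CPM with siBRD8-6 and 88.0, 88.5 and 80.8 CPM with siBRD8-36, against 224, 217 and 232 CPM with siControl in HCT116. The SW480 values were 243, 254 and 242 CPM with siBRD8-6 and 131, 146 and 149 CPM with siBRD8-36, against 410.3, 400.4 and 404 CPM with siControl. In both lines the groups were fully apart, with siBRD8-6 between siBRD8-36 and siControl. Over both siRNAs the log2 fold change averaged -0.81 (SE 0.041, adjusted p = 0.00118) in HCT116 and -1.11 (SE 0.047, adjusted p = 1.04e-10) in SW480.

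NCAPH (ENSG00000121152, chr2:96335787-96373845, + strand), the kleisin of condensin I, had 40.7, 39.4 and 40.1 CPM with siBRD8-6 and 14.8, 16.8 and 16.0 CPM with siBRD8-36, against 66.1, 63.4 and 68.8 CPM with siControl in HCT116. Its SW480 libraries had 22.8, 26.4 and 21.9 CPM with siBRD8-6 and 12.1, 14.5 and 12.5 CPM with siBRD8-36, against 43.5, 37.8 and 40.2 CPM with siControl. The groups were fully apart in both lines, in the same order as for SMC4. The mean log2 fold change was -1.39 (SE 0.048, adjusted p = 1.08e-08) in HCT116, the lowest of the 8 there, and -1.21 (SE 0.079, adjusted p = 9.22e-08) in SW480.

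NCAPG (ENSG00000109805, chr4:17810902-17844862, + strand), a HEAT-repeat subunit of condensin I, had 176, 186 and 179.6 CPM with siBRD8-6 and 51.5, 58.9 and 43.9 CPM with siBRD8-36, against 176, 135 and 180.4 CPM with siControl in HCT116. The siBRD8-6 libraries lay at or above the level of the higher controls and the siBRD8-36 libraries below all others, with log2 fold changes of 0.14 (SE 0.098, adjusted p = 0.263) for siBRD8-6 and -1.68 (SE 0.10, adjusted p = 1.10e-09) for siBRD8-36. Control replicate 2 was the low one, and without it the value for siBRD8-6 was 0.019 (adjusted p = 0.850). In SW480 it had 53.6, 58.6 and 55.3 CPM with siBRD8-6 and 21.2, 26.0 and 25.0 CPM with siBRD8-36, against 86.5, 84.6 and 87.3 CPM with siControl. These groups were fully apart, with a mean log2 fold change of -1.23 (SE 0.062, adjusted p = 7.70e-08). The response to siBRD8-6 differed between the lines, by 0.72 (SE 0.12, adjusted p = 3.31e-05) on the log2 scale as HCT116 minus SW480.

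NCAPD2 (ENSG00000010292, chr12:6493356-6531955, + strand), the other HEAT-repeat subunit of condensin I, had 305, 317 and 315 CPM with siBRD8-6 and 161, 159 and 169 CPM with siBRD8-36, against 315, 267 and 373 CPM with siControl in HCT116. The SW480 values were 162, 158 and 174 CPM with siBRD8-6 and 99.3, 105 and 107 CPM with siBRD8-36, against 167, 168 and 182 CPM with siControl. In both lines the siBRD8-6 libraries overlapped the controls and the siBRD8-36 libraries lay below both groups. With siBRD8-36 the log2 fold change was -0.97 (SE 0.082, adjusted p = 1.22e-08) in HCT116 and -0.73 (SE 0.058, adjusted p = 2.05e-11) in SW480. With siBRD8-6 it was -0.028 (SE 0.080, adjusted p = 0.795) in HCT116, or -0.14, adjusted p = 0.0459 without siControl replicate 2, and -0.062 (SE 0.056, adjusted p = 0.370) in SW480. On the TPM scale the SW480 value with siBRD8-6 was 0.35, the opposite direction.

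NCAPD3 (ENSG00000151503, chr11:134150119-134225454, - strand), the counterpart of NCAPD2 in condensin II, had 71.2, 79.9 and 73.0 CPM with siBRD8-6 and 59.2, 58.4 and 63.4 CPM with siBRD8-36, against 123, 101 and 122 CPM with siControl in HCT116. Its SW480 libraries had 46.8, 49.5 and 48.5 CPM with siBRD8-6 and 43.4, 40.4 and 42.7 CPM with siBRD8-36, against 61.7, 60.0 and 57.5 CPM with siControl. No library with a BRD8 siRNA reached the controls in either line. Over both siRNAs the log2 fold change averaged -0.78 (SE 0.061, adjusted p = 1.78e-06) in HCT116 and -0.40 (SE 0.056, adjusted p = 0.000499) in SW480.

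NCAPG2 (ENSG00000146918, chr7:158631311-158704829, - strand), the counterpart of NCAPG in condensin II, had 87.8, 90.3 and 91.1 CPM with siBRD8-6 and 46.0, 46.0 and 46.3 CPM with siBRD8-36, against 99.1, 87.5 and 109 CPM with siControl in HCT116. The siBRD8-6 libraries overlapped the controls, of which replicate 2 was again lowest. The mean log2 fold change of both siRNAs was -0.62 (SE 0.054, adjusted p = 0.134), and the call was made without that control (-0.69, adjusted p = 0.00246). In SW480 it had 37.98, 41.6 and 37.5 CPM with siBRD8-6 and 25.0, 25.3 and 26.5 CPM with siBRD8-36, against 53.6, 51.9 and 52.4 CPM with siControl. The groups were fully apart there, with a mean log2 fold change of -0.74 (SE 0.064, adjusted p = 3.65e-05).

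NCAPH2 (ENSG00000025770, chr22:50508216-50523472, + strand), the kleisin of condensin II, had 60.6, 66.8 and 66.8 CPM with siBRD8-6 and 30.5, 34.7 and 29.9 CPM with siBRD8-36, against 74.7, 83.9 and 74.0 CPM with siControl in HCT116. The SW480 values were 23.6, 28.2 and 28.4 CPM with siBRD8-6 and 21.4, 21.8 and 19.9 CPM with siBRD8-36, against 37.1, 39.1 and 44.7 CPM with siControl. All libraries with a BRD8 siRNA were below all controls in both lines. The mean log2 fold change was -0.78 (SE 0.060, adjusted p = 0.00821) in HCT116, with an adjusted p of 0.0645 without siBRD8-6 replicate 1, and -0.76 (SE 0.080, adjusted p = 1.22e-05) in SW480.

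**Figure D3:**
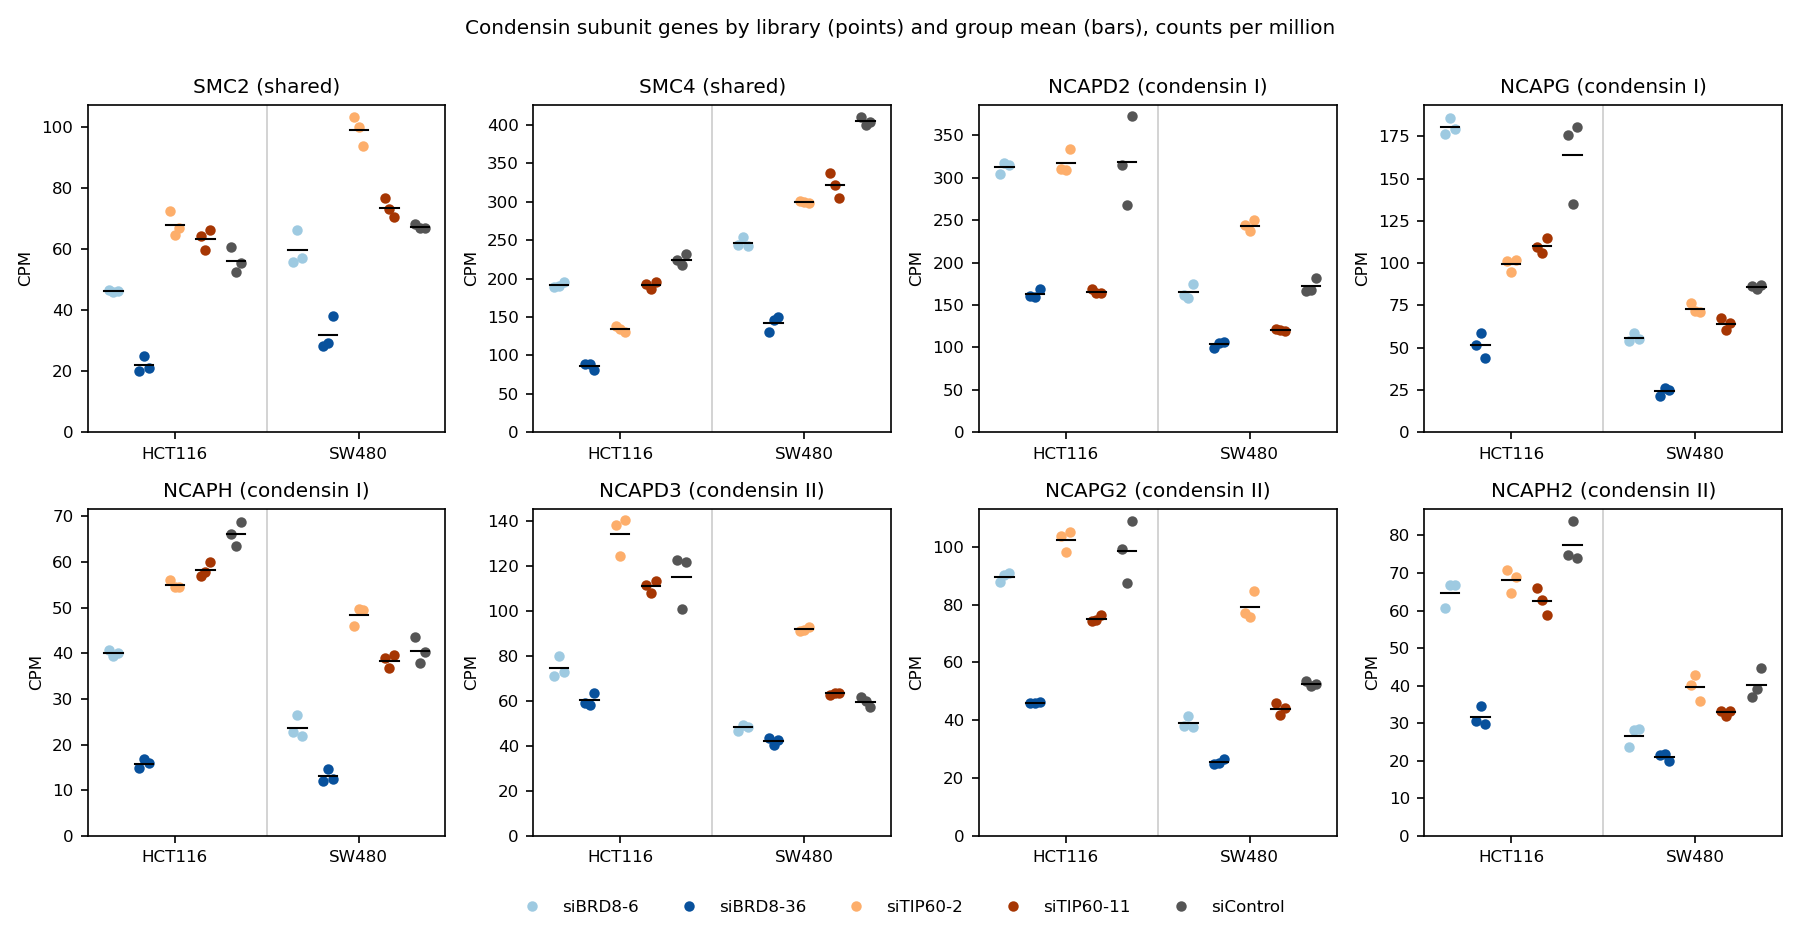
CPM of each condensin gene in all 30 libraries, by line and siRNA, with points for libraries and bars for group means. The siBRD8-36 means are the lowest of each panel and line, and for NCAPD2 in HCT116 siTIP60-11 lies almost as low (163 CPM with siBRD8-36 and 165 CPM with siTIP60-11).

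The siRNAs against BRD8 differed from each other. With siBRD8-36, 8 of 8 were lower than with siBRD8-6 in HCT116, against 28.3% of all genes, and 8 of 8 were lower in SW480, against 27.0%. The median log2 difference of the 8 was -1.06 in HCT116, against 0 over all genes, and -0.73 in SW480. NCAPG had the widest difference, -1.82 (SE 0.10, adjusted p = 4.71e-10) in HCT116 and -1.22 (SE 0.078, adjusted p = 3.00e-13) in SW480. NCAPD3 had the narrowest, -0.31 (SE 0.074, adjusted p = 0.00153) in HCT116 and -0.19 (SE 0.065, adjusted p = 0.0134) in SW480, where the call was lost without siBRD8-36 replicate 2 (-0.16, adjusted p = 0.0634), with no filter (adjusted p = 0.0541) and with only the groups compared (adjusted p = 0.0663). On log2(TPM + 1) with limma, the calls on NCAPD3 (-0.22, adjusted p = 0.102) and NCAPH2 (-0.29, adjusted p = 0.132) in SW480 were lost. BRD8 itself averaged 5.95 ± 0.507 CPM with siBRD8-36 and 8.73 ± 0.505 CPM with siBRD8-6 in HCT116, and 11.6 ± 0.623 and 13.4 ± 1.00 CPM in SW480 (SD, n = 3). The part of that difference, and of the lower KAT5 with siBRD8-36, was not tested.

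Depletion of TIP60 was followed by lower levels of SMC4 and NCAPG in both lines, and by changes of the other genes that depended on the siRNA or the line. With both siRNAs, 3 of the 8 were lower than with siControl in HCT116, SMC4, NCAPG and NCAPH, against 14.1% of all genes, and 2 in SW480, SMC4 and NCAPG, against 12.1%. None was called higher with both, against 13.7% of all genes in HCT116 and 11.5% in SW480. The median log2 fold change of the 8 was -0.24 in HCT116, against -0.027 over all genes, and 0.041 in SW480, against 0.0074. For the siRNAs apart, it was -0.095 with siTIP60-2 and -0.27 with siTIP60-11 in HCT116, and 0.38 and -0.27 in SW480. By single siRNA, siTIP60-2 lowered 4 genes (25.4% of all genes) and raised 2 (24.3%) in HCT116, and lowered 2 (24.4%) and raised 5 (25.1%) in SW480. The counts of 2, as shares of the 8, are near those of all genes. With siTIP60-11, 6 genes were lower in HCT116 (27.7%) and 5 in SW480 (24.2%), and none was called higher (25.9% and 23.4%). On log2(TPM + 1) with limma, 0 genes were called with both TIP60 siRNAs in SW480, where the adjusted p was 0.311 for SMC4, and the median of all genes moved by 0.17. By single siRNA that scale called 2 lower and 1 higher with siTIP60-2 in HCT116, 0 lower and 5 higher with siTIP60-2 in SW480, and 0 lower and 1 higher with siTIP60-11 in SW480. In SW480 it called 2521 of 16383 genes with both TIP60 siRNAs, 6932 with siTIP60-2 and 5538 with siTIP60-11, in either direction. For siTIP60-2 and siTIP60-11 the median of all genes moved by 0.22 and 0.11. The part of this shift in the counts was not tested.

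SMC4 had 139, 135 and 131 CPM with siTIP60-2 and 193, 186 and 196 CPM with siTIP60-11, against 224, 217 and 232 CPM with siControl in HCT116. Its SW480 libraries had 301, 299.9 and 299 CPM with siTIP60-2 and 338, 322 and 305 CPM with siTIP60-11, against 410.3, 400.4 and 404 CPM with siControl. All libraries with a TIP60 siRNA lay below all controls in both lines. Over both siRNAs the log2 fold change averaged -0.48 (SE 0.041, adjusted p = 0.00104) in HCT116 and -0.38 (SE 0.047, adjusted p = 4.02e-05) in SW480.

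SMC2, its partner, had 72.4, 64.6 and 66.7 CPM with siTIP60-2 and 64.2, 59.7 and 66.0 CPM with siTIP60-11, against 60.6, 52.5 and 55.4 CPM with siControl in HCT116. In SW480 it had 103, 99.9 and 93.8 CPM with siTIP60-2 and 76.6, 73.1 and 70.4 CPM with siTIP60-11, against 68.2, 66.9 and 66.8 CPM with siControl. All libraries with a TIP60 siRNA lay above all controls in SW480, and in HCT116 this held for siTIP60-2, while siTIP60-11 overlapped the controls. With siTIP60-2 SMC2 rose, by 0.27 (SE 0.072, adjusted p = 0.00412) in HCT116 and 0.55 (SE 0.083, adjusted p = 3.22e-06) in SW480 on the log2 scale. With siTIP60-11 it had 0.17 (SE 0.073, adjusted p = 0.0577) in HCT116, called without siControl replicate 1 (0.23, adjusted p = 0.0224), and 0.12 (SE 0.084, adjusted p = 0.233) in SW480.

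In condensin I, NCAPG had 101, 94.9 and 102 CPM with siTIP60-2 and 109, 106 and 115 CPM with siTIP60-11, against 176, 135 and 180.4 CPM with siControl in HCT116. The SW480 values were 76.6, 71.5 and 71.0 CPM with siTIP60-2 and 67.3, 60.5 and 64.7 CPM with siTIP60-11, against 86.5, 84.6 and 87.3 CPM with siControl. All libraries with a TIP60 siRNA lay below all controls in both lines. The mean log2 fold change was -0.65 (SE 0.084, adjusted p = 0.000318) in HCT116 and -0.33 (SE 0.060, adjusted p = 0.0114) in SW480. On the TPM scale, on which the median of all genes was 0.22 higher on the log2 scale for siTIP60-2 in SW480, the value of NCAPG with that siRNA was 0.14, the opposite direction.

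NCAPH averaged 55.05 ± 0.769 CPM with siTIP60-2 and 58.2 ± 1.57 CPM with siTIP60-11, against 66.1 ± 2.73 CPM with siControl in HCT116 (SD, n = 3), with all libraries of both siRNAs below the controls. Its mean log2 fold change of -0.22 (SE 0.046, adjusted p = 0.0124) was not called without siControl replicate 3 (-0.19, adjusted p = 0.0625) or siTIP60-11 replicate 1 (-0.22, adjusted p = 0.0570), or on log2(TPM + 1) with limma (-0.29, adjusted p = 0.103). In SW480 it averaged 48.4 ± 2.09 CPM with siTIP60-2 and 38.4 ± 1.52 CPM with siTIP60-11, against 40.5 ± 2.87 CPM with siControl (SD, n = 3), above the controls with siTIP60-2 and overlapping them with siTIP60-11. The rise with siTIP60-2, 0.26 (SE 0.083, adjusted p = 0.0111), was not called without siControl replicate 2 (0.21, adjusted p = 0.0744), and siTIP60-11 gave -0.077 (SE 0.084, adjusted p = 0.474).

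NCAPD2 had 310.3, 309 and 334 CPM with siTIP60-2 and 169, 163 and 164 CPM with siTIP60-11, against 315, 267 and 373 CPM with siControl in HCT116. Its SW480 libraries had 244, 237 and 249.6 CPM with siTIP60-2 and 121, 121 and 119.6 CPM with siTIP60-11, against 167, 168 and 182 CPM with siControl. The siTIP60-11 libraries lay below the others in both lines, while those with siTIP60-2 lay within the range of the controls in HCT116 and above it in SW480. The log2 fold change with siTIP60-11 was -0.95 (SE 0.082, adjusted p = 2.51e-08) in HCT116 and -0.52 (SE 0.057, adjusted p = 2.40e-08) in SW480. With siTIP60-2 it was -0.0039 (SE 0.080, adjusted p = 0.974) in HCT116 and 0.50 (SE 0.056, adjusted p = 3.29e-08) in SW480.

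In condensin II, NCAPD3 averaged 91.8 ± 0.968 CPM with siTIP60-2 and 63.4 ± 0.545 CPM with siTIP60-11, against 59.7 ± 2.08 CPM with siControl in SW480 (SD, n = 3). All its libraries with a TIP60 siRNA lay above the controls there, and the call was made for siTIP60-2, 0.62 (SE 0.062, adjusted p = 4.47e-09), and not for siTIP60-11, 0.085 (SE 0.063, adjusted p = 0.281). In HCT116 it averaged 134 ± 8.62 CPM with siTIP60-2 and 111 ± 2.80 CPM with siTIP60-11, against 115 ± 12.3 CPM with siControl (SD, n = 3). It rose with siTIP60-2, by 0.22 (SE 0.070, adjusted p = 0.0141), which was not called without siControl replicate 2 (0.13, adjusted p = 0.0572) or siTIP60-2 replicate 3 (0.19, adjusted p = 0.0694).

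NCAPG2 averaged 79.1 ± 4.85 CPM with siTIP60-2 and 44.0 ± 2.06 CPM with siTIP60-11, against 52.6 ± 0.858 CPM with siControl in SW480 (SD, n = 3). It lay above the controls with siTIP60-2, at 0.59 (SE 0.069, adjusted p = 7.53e-08), and below them with siTIP60-11, at -0.26 (SE 0.072, adjusted p = 0.00440). In HCT116 it averaged 102 ± 3.81 CPM with siTIP60-2 and 75.1 ± 0.995 CPM with siTIP60-11, against 98.5 ± 10.8 CPM with siControl (SD, n = 3). It overlapped the controls with siTIP60-2, at 0.053 (SE 0.062, adjusted p = 0.504), and lay below them with siTIP60-11, at -0.39 (SE 0.063, adjusted p = 3.04e-05).

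NCAPH2 averaged 68.1 ± 3.19 CPM with siTIP60-2 and 62.5 ± 3.62 CPM with siTIP60-11, against 77.5 ± 5.56 CPM with siControl in HCT116 (SD, n = 3), below all controls with both siRNAs. The call for both was missed, at -0.25 (SE 0.059, adjusted p = 0.0518), and made without siControl replicate 3 (-0.27, adjusted p = 0.0453) or siBRD8-36 replicate 2 (-0.25, adjusted p = 0.0377). With siTIP60-2 alone it was -0.19 (SE 0.069, adjusted p = 0.0313), a call lost without siControl replicate 2, siTIP60-2 replicate 2 or siTIP60-2 replicate 3, with adjusted p-values of 0.110, 0.132 and 0.0614. In SW480 it averaged 39.7 ± 3.41 CPM with siTIP60-2 and 32.9 ± 0.789 CPM with siTIP60-11, against 40.3 ± 3.94 CPM with siControl (SD, n = 3). It fell with siTIP60-11, at -0.29 (SE 0.089, adjusted p = 0.00838), but not without siControl replicate 3 (-0.21, adjusted p = 0.0812), and overlapped the controls with siTIP60-2, at -0.021 (SE 0.088, adjusted p = 0.867).

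**Figure D4:**
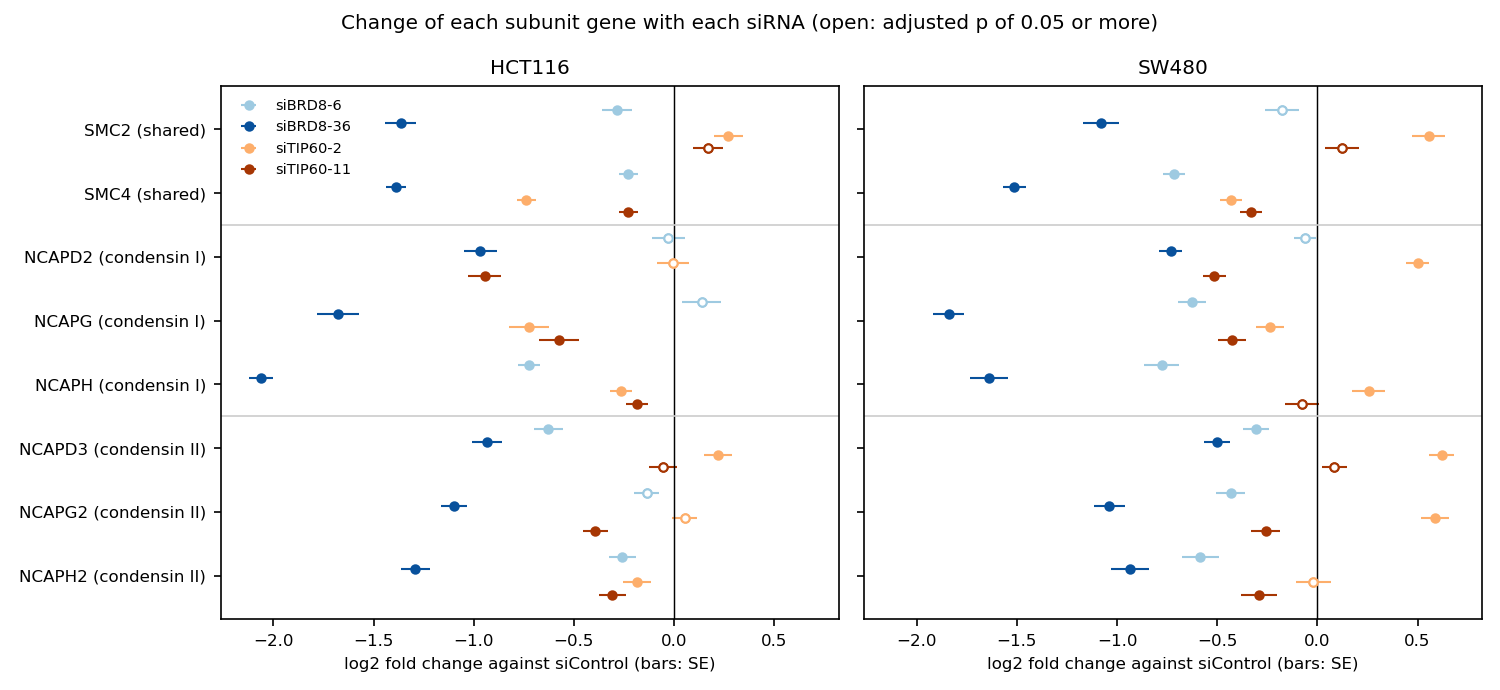
Log2 fold change of each condensin gene against siControl with each siRNA, HCT116 left and SW480 right, with bars for the SE and open points for an adjusted p of 0.05 or more. All siBRD8-36 points lie below 0, from -2.06 for NCAPH in HCT116 to -0.50 for NCAPD3 in SW480, while those of siTIP60-2 in SW480 run from -0.43 for SMC4 to 0.62 for NCAPD3.

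Set against siTIP60-2, siTIP60-11 gave lower values of 3 genes in HCT116 (23.5% of all genes) and higher values of 1 (22.5%), and lower values of 7 in SW480 (23.4%). For the 1 higher gene, the share of the condensin genes is below that of all genes. NCAPD2 had the widest difference in both lines, -0.94 (SE 0.082, adjusted p = 4.26e-08) in HCT116 and -1.02 (SE 0.056, adjusted p = 3.19e-14) in SW480 on the log2 scale. NCAPG2 followed in SW480, at -0.85 (SE 0.068, adjusted p = 6.75e-11), and had -0.45 (SE 0.062, adjusted p = 9.79e-06) in HCT116. SMC4 was the gene that was higher in HCT116, at 0.51 (SE 0.049, adjusted p = 8.36e-08), and the one not called in SW480, at 0.10 (SE 0.055, adjusted p = 0.144). In SW480 the call on NCAPG was lost without siTIP60-2 replicate 1, siTIP60-11 replicate 2 or siTIP60-11 replicate 3, with adjusted p-values of 0.133, 0.144 and 0.0560, and that on NCAPH2 without siTIP60-2 replicate 2, with 0.0853. On log2(TPM + 1) with limma the split in HCT116 was 1 lower, NCAPD2, and 1 higher, SMC4, and the call on NCAPH2 in SW480 was lost (adjusted p = 0.0687). With only the groups compared, 6 genes were called in HCT116.

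**Figure D5:**
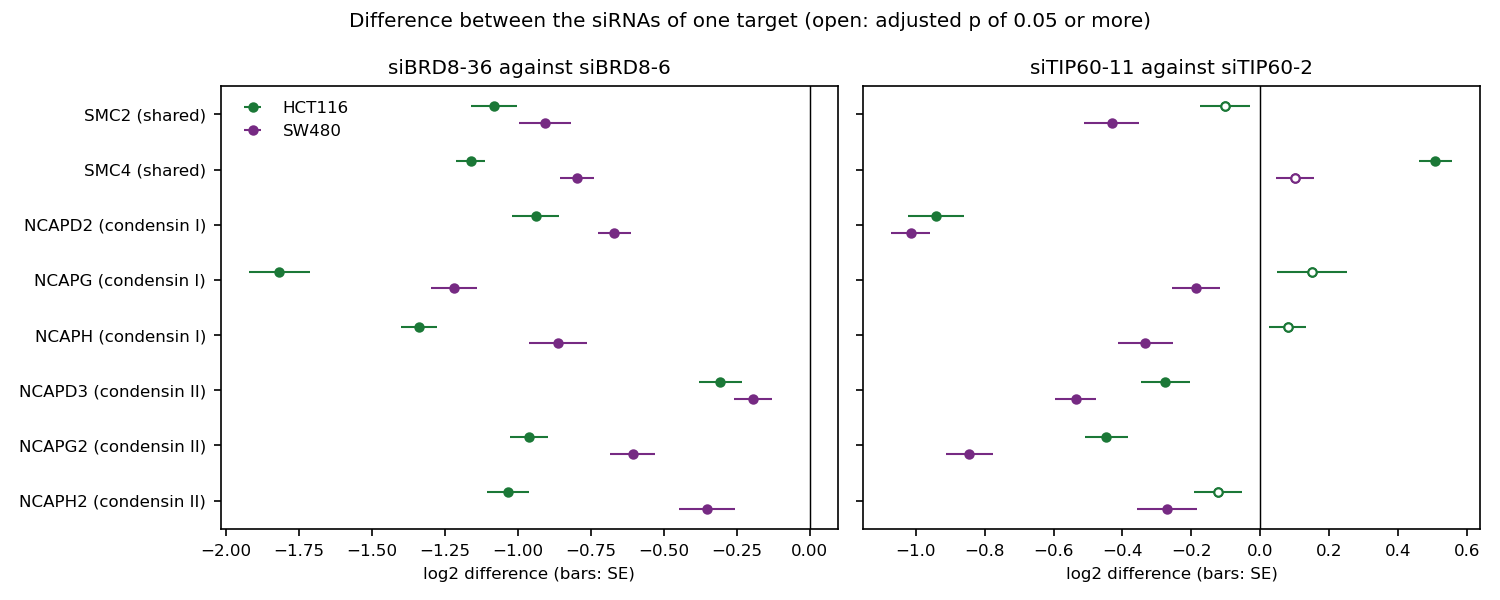
Log2 difference between the siRNAs of each target for each condensin gene, HCT116 in green above SW480 in purple, with bars for the SE and open points for an adjusted p of 0.05 or more. Every point of siBRD8-36 against siBRD8-6 lies below 0, and NCAPD2 is the lowest of siTIP60-11 against siTIP60-2, at -0.94 in HCT116 and -1.02 in SW480.

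Between the targets, each taken as the mean of its siRNAs, 6 of 8 genes were lower with the BRD8 siRNAs than with the TIP60 siRNAs in HCT116, against 31.7% of all genes, and 8 of 8 in SW480, against 30.2%. Of these, SMC4, NCAPG2 and NCAPH2 in HCT116 and NCAPD2 in SW480 had BRD8 libraries that overlapped the TIP60 libraries. In HCT116 SMC4 averaged 192 CPM with siBRD8-6 against 135 CPM with siTIP60-2. Against siTIP60-11, siBRD8-6 gave 89.7 and 75.1 CPM for NCAPG2 and 64.7 and 62.5 CPM for NCAPH2. For NCAPD2 in SW480 siBRD8-6 gave 165 CPM and siTIP60-11 120 CPM. NCAPH had the widest difference in both lines, -1.17 (SE 0.041, adjusted p = 3.41e-14) in HCT116 and -1.299 (SE 0.063, adjusted p = 7.92e-16) in SW480. SMC2 differed by -1.05 (SE 0.054, adjusted p = 5.27e-12) in HCT116 and -0.97 (SE 0.060, adjusted p = 1.17e-13) in SW480, and NCAPD3 by -0.86 (SE 0.051, adjusted p = 3.95e-11) and -0.76 (SE 0.044, adjusted p = 2.76e-14) in the same lines. The genes not called in HCT116 were NCAPD2, at -0.023 (SE 0.057, adjusted p = 0.753), and NCAPG, at -0.12 (SE 0.072, adjusted p = 0.160). NCAPG was called without siControl replicate 2 (-0.12, adjusted p = 0.0329) and without siBRD8-36 replicate 2 (-0.17, adjusted p = 0.0397).

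The lines were compared by the interaction term of the fit of all 30 libraries, as the log2 fold change in HCT116 minus that in SW480. For BRD8, 3 condensin genes had a lower value in HCT116, against 21.9% of all genes, and 2 a higher one, against 12.5%, while the median of all genes was -0.10. NCAPD3 had -0.45 (SE 0.083, adjusted p = 6.34e-05), SMC2 -0.27 (SE 0.11, adjusted p = 0.0482) and NCAPH -0.25 (SE 0.089, adjusted p = 0.0251). NCAPG had 0.39 (SE 0.11, adjusted p = 0.00562) and SMC4 0.24 (SE 0.062, adjusted p = 0.00273), in the other direction. The call on SMC2 was lost in 23 and that on NCAPH in 12 of the 30 fits that left out 1 library, while those on NCAPD3, NCAPG and SMC4 were made in all 30 of these fits. DESeq2 called 1 gene lower and 2 higher, as did edgeR with DESeq2's size factors, and limma on log2(TPM + 1) called 4 lower and 0 higher. Over all genes that limma fit called 5727 of 18157 in either direction, and the median moved by -0.10. On the TPM scale the value of SMC4 was -0.11, the opposite direction.

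By single siRNA, the response to siBRD8-6 was lower in HCT116 for 1 gene, NCAPD3 (18.7% of all genes), and higher for 3, NCAPG, SMC4 and NCAPG2 (12.9%). That count of 1 lower gene is below the share of all genes. The call on NCAPD3 was lost without SW480 siControl replicate 3 (-0.25, adjusted p = 0.0658). That on NCAPG2, 0.25 (SE 0.093, adjusted p = 0.0383), was lost in 7 of the 30 fits that left out 1 library, with adjusted p-values between 0.0542 without SW480 siControl replicate 2 and 0.125 without HCT116 siControl replicate 2. The others of these were HCT116 siBRD8-6 replicates 2 and 3, SW480 siControl replicate 1 and SW480 siBRD8-6 replicates 1 and 3. NCAPH2, at 0.28 (SE 0.12, adjusted p = 0.0656), was called higher in 8 of those fits and by DESeq2 (0.32, adjusted p = 0.0227). SMC4 had 0.44 (SE 0.071, adjusted p = 8.42e-06) in this comparison, and -0.039 on the TPM scale, the opposite direction. On log2(TPM + 1) 2 genes were called lower and 0 higher with siBRD8-6. Over all genes that scale called 4681 of 18157 in either direction, and the median moved by -0.11. The response to siBRD8-36 was lower in HCT116 for 5 genes (23.3%), SMC2, NCAPD2, NCAPD3, NCAPH and NCAPH2, and for 3 without SW480 siControl replicate 2, 3 without SW480 siBRD8-36 replicate 3 and 3 without SW480 siTIP60-11 replicate 1. With all libraries kept, SMC2 and NCAPD2 were not called with DESeq2 (adjusted p = 0.0833 and 0.0978), with DESeq2's size factors or with only the groups compared. With no filter SMC2, NCAPD2 and NCAPH2 were not called (adjusted p = 0.167, 0.224 and 0.0582), which left 2.

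For TIP60, 5 condensin genes had a lower value in HCT116 than in SW480, against 18.1% of all genes. None had a higher one, against 13.1%, while the median of all genes was -0.065. NCAPD2 had -0.51 (SE 0.087, adjusted p = 2.18e-05), NCAPG2 -0.38 (SE 0.080, adjusted p = 0.000369) and NCAPH -0.36 (SE 0.082, adjusted p = 0.000990). NCAPG had -0.36 (SE 0.11, adjusted p = 0.0100) and NCAPD3 -0.31 (SE 0.081, adjusted p = 0.00316), and without SW480 siControl replicate 3 both calls were lost (-0.28, adjusted p = 0.0777 for NCAPG and -0.20, adjusted p = 0.0996 for NCAPD3). NCAPG was also not called without HCT116 siControl replicate 1, HCT116 siControl replicate 3 or SW480 siTIP60-11 replicate 1, with adjusted p-values of 0.0599, 0.0664 and 0.0725. The response to siTIP60-2 was lower in HCT116 for 7 genes, all but NCAPH2 (17.2%). Of these, SMC2 was not called in 18 of the 30 fits that left out 1 library, nor by DESeq2 (adjusted p = 0.0671). That to siTIP60-11 was lower for 1, NCAPD2 (16.1%), or for 4 without HCT116 siControl replicate 2. Here the count of 1 is not above the share of all genes.

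Without HCT116 siControl replicate 2, the control that stood apart, further calls between the lines were made on NCAPD2 for BRD8 (-0.28, adjusted p = 0.00188), NCAPG2 for siBRD8-36 (-0.23, adjusted p = 0.0396) and SMC4 for TIP60 (-0.17, adjusted p = 0.0435). Within HCT116, NCAPG2 was then called lower with siBRD8-6 (-0.21, adjusted p = 0.00128) and NCAPD3 with siTIP60-11 (-0.14, adjusted p = 0.0432).

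The proportions between subunits were also set side by side, as TPM, as a description with no test. The TPM of SMC4 divided by that of SMC2 was 6.33 ± 0.819 with siBRD8-6, 6.22 ± 0.210 with siBRD8-36, 3.13 ± 0.462 with siTIP60-2 and 4.58 ± 0.202 with siTIP60-11, against 7.19 ± 0.719 with siControl in HCT116 (SD, n = 3). It was 6.71 ± 1.04 with siBRD8-6, 7.14 ± 1.12 with siBRD8-36, 5.60 ± 1.41 with siTIP60-2 and 7.92 ± 0.616 with siTIP60-11, against 10.2 ± 1.17 with siControl in SW480 (SD, n = 3). All libraries with a TIP60 siRNA lay below all controls in both lines, and those with a BRD8 siRNA did so in SW480 and overlapped the controls in HCT116. Of the summed TPM of the kleisins NCAPH and NCAPH2, NCAPH made up 32.3 ± 4.48% with siBRD8-6, 28.7 ± 1.82% with siBRD8-36, 39.9 ± 3.23% with siTIP60-2 and 41.9 ± 2.89% with siTIP60-11, against 43.2 ± 4.27% with siControl in HCT116 (SD, n = 3). The BRD8 libraries lay between 27.4% and 37.3%, below the controls at 38.3% to 46.0%, which the TIP60 libraries overlapped. In SW480 the share was 40.0 ± 4.17% with siBRD8-6, 35.3 ± 1.13% with siBRD8-36, 49.3 ± 7.19% with siTIP60-2 and 43.7 ± 1.57% with siTIP60-11, against 42.4 ± 7.03% with siControl (SD, n = 3), and each siRNA overlapped the controls.

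Of the summed TPM of NCAPD2 and NCAPD3, NCAPD2 made up 85.3 ± 1.47% with siBRD8-6, 78.6 ± 1.44% with siBRD8-36, 76.2 ± 0.607% with siTIP60-2 and 66.5 ± 3.98% with siTIP60-11, against 78.7 ± 2.71% with siControl in HCT116 (SD, n = 3). The share was 81.6 ± 2.08% with siBRD8-6, 75.3 ± 1.82% with siBRD8-36, 77.6 ± 1.54% with siTIP60-2 and 69.5 ± 2.15% with siTIP60-11, against 76.8 ± 1.32% with siControl in SW480 (SD, n = 3). In both lines it lay above all controls with siBRD8-6 and below all controls with siTIP60-11, and overlapped them with siBRD8-36 and siTIP60-2. Of the summed TPM of NCAPG and NCAPG2, NCAPG made up 69.6 ± 0.367% with siBRD8-6, 58.6 ± 2.99% with siBRD8-36, 55.5 ± 3.06% with siTIP60-2 and 63.8 ± 2.39% with siTIP60-11, against 65.1 ± 1.304% with siControl in HCT116 (SD, n = 3). In SW480 it made up 64.3 ± 2.59% with siBRD8-6, 52.5 ± 8.61% with siBRD8-36, 55.2 ± 1.82% with siTIP60-2 and 62.5 ± 4.21% with siTIP60-11, against 65.6 ± 1.82% with siControl (SD, n = 3). The share lay below all controls with siBRD8-36 and siTIP60-2 in both lines, above them with siBRD8-6 in HCT116, and overlapped them with siTIP60-11 in both lines and with siBRD8-6 in SW480.

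Lists of related genes were read beside condensin, and they were chosen with results of these data known. Cohesin is the ring built on SMC1A, SMC3 and RAD21 that holds sister chromatids together. With both BRD8 siRNAs, 7 of the 17 genes of cohesin and its regulators were lower than with siControl in HCT116, against 12.2% of all genes, and 8 in SW480, against 14%. None was higher, against 12.2% of all genes in HCT116 and 12.9% in SW480. The list had median log2 fold changes of -0.52 and -0.41 against -0.022 and -0.0036 over all genes. ESPL1, the protease that cuts cohesin at anaphase, had -1.43 (SE 0.088, adjusted p = 1.06e-06) in HCT116 and -0.85 (SE 0.082, adjusted p = 2.63e-06) in SW480. SGO1, which protects centromeric cohesin, had -1.37 (SE 0.075, adjusted p = 1.11e-05) in HCT116 and -1.76 (SE 0.11, adjusted p = 4.46e-07) in SW480. With both TIP60 siRNAs, 6 of the 17 were lower (14.1% of all genes) and 2 higher (13.7%) in HCT116, and 3 were lower (12.1%) and 2 higher (11.5%) in SW480. As shares of the 17, the counts of 2 higher genes are near those of all genes, and the 3 lower in SW480 are little above. PDS5A, a cohesin regulator, was lower in both lines, at -0.59 (SE 0.055, adjusted p = 1.44e-05) in HCT116 and -0.46 (SE 0.059, adjusted p = 0.000452) in SW480. MAU2, of the same list, was higher with the TIP60 siRNAs in SW480, at 0.49 (SE 0.089, adjusted p = 0.00661).

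Of the SMC5/6 complex, the third SMC complex and a DNA repair factor, 8 of 9 genes were tested. With both BRD8 siRNAs 2 of the 8 were lower in HCT116, against 12.2% of all genes, and 4 in SW480, against 14%. None was higher, against 12.2% of all genes in HCT116 and 12.9% in SW480. With both TIP60 siRNAs 1 of the 8 was lower (14.1%) and 2 were higher (13.7%) in HCT116, and 1 was lower (12.1%) and 2 were higher (11.5%) in SW480. The count of 1 lower gene is near the share of all genes. The median log2 fold change of the complex was -0.16 in HCT116 and -0.19 in SW480 with the BRD8 siRNAs, and 0.077 and -0.065 with the TIP60 siRNAs in the same lines. Its median was -0.12 with siBRD8-6 and -0.33 with siBRD8-36 in HCT116, and -0.21 and -0.29 in SW480. SMC5 had -0.79 (SE 0.076, adjusted p = 3.42e-05) in HCT116 and -0.46 (SE 0.066, adjusted p = 0.00138) in SW480 with the BRD8 siRNAs. NSMCE2, the SUMO ligase of the complex, had 0.69 (SE 0.071, adjusted p = 5.56e-06) with the TIP60 siRNAs in HCT116 and -0.55 (SE 0.069, adjusted p = 0.000862) with the BRD8 siRNAs in SW480.

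Of 18 tested genes for partners of condensin on mitotic chromosomes and its regulators, 6 were lower (12.2% of all genes) and 1 was higher (12.2%) with both BRD8 siRNAs in HCT116, and 13 were lower (14%) and none was higher (12.9%) in SW480. With both TIP60 siRNAs 6 were lower (14.1%) and none was higher (13.7%) in HCT116, and 6 were lower (12.1%) and 2 higher (11.5%) in SW480. The list's median log2 fold change was -0.60 in HCT116 and -0.87 in SW480 with the BRD8 siRNAs, and -0.11 and -0.15 with the TIP60 siRNAs in the same lines. Taken singly, siBRD8-6 gave a median of -0.056 and siBRD8-36 of -1.19 in HCT116, and they gave -0.56 and -1.28 in SW480. CDK1, the mitotic kinase that phosphorylates condensin, had -1.48 (SE 0.049, adjusted p = 1.84e-06) in HCT116 and -1.90 (SE 0.076, adjusted p = 3.24e-10) in SW480 with the BRD8 siRNAs. With the TIP60 siRNAs it had -0.63 (SE 0.047, adjusted p = 3.92e-06) in HCT116 and -0.66 (SE 0.070, adjusted p = 0.000227) in SW480. AURKB, the chromosomal passenger kinase, had -0.98 (SE 0.048, adjusted p = 0.000103) in HCT116 and -1.10 (SE 0.067, adjusted p = 2.94e-09) in SW480 with the BRD8 siRNAs. TOP2A, a topoisomerase of mitotic chromosomes, had -1.31 (SE 0.077, adjusted p = 7.14e-06) with the BRD8 siRNAs in HCT116.

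Of 24 transcription regulators of late cell cycle genes, 7 were lower (12.2% of all genes) and 2 higher (12.2%) with both BRD8 siRNAs in HCT116, and 9 were lower (14%) and 3 higher (12.9%) in SW480. With both TIP60 siRNAs 2 were lower (14.1%) and 5 higher (13.7%) in HCT116, and 3 were lower (12.1%) and none was higher (11.5%) in SW480. As shares of the 24, the lower counts with the TIP60 siRNAs are below or near those of all genes. Over the 24 the median log2 fold change was -0.42 in HCT116 and -0.40 in SW480 with the BRD8 siRNAs, and -0.067 and -0.0097 with the TIP60 siRNAs in the same lines. This median was -0.027 with siBRD8-6 alone and -0.66 with siBRD8-36 alone in HCT116, and -0.27 and -0.47 in SW480. CDKN1A, which encodes the CDK inhibitor p21, was higher in HCT116 with the BRD8 siRNAs, at 1.21 (SE 0.064, adjusted p = 1.58e-05), and with the TIP60 siRNAs, at 1.41 (SE 0.065, adjusted p = 2.32e-10). LIN9, a MuvB subunit, had -1.12 (SE 0.12, adjusted p = 2.01e-05) with the BRD8 siRNAs in SW480. E2F5 was higher with the BRD8 siRNAs in HCT116, at 0.88 (SE 0.091, adjusted p = 7.19e-06), and lower with the TIP60 siRNAs in SW480, at -0.71 (SE 0.098, adjusted p = 0.0491). E2F1 was higher with the TIP60 siRNAs in HCT116, at 0.72 (SE 0.080, adjusted p = 0.000563), and lower with the BRD8 siRNAs in SW480, at -0.80 (SE 0.089, adjusted p = 0.000481). The comparisons with siControl of a line share their control libraries.

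The genes whose pattern was most like that of condensin were sought among 10136 protein-coding genes, by the Pearson r of log2 CPM over the 30 libraries after each line was centred on its own mean. Nearest to the mean of all 8 genes were KIF2C (r = 0.988), RRM1 (r = 0.983), ATAD2 (r = 0.982), KIF11 (r = 0.981) and KIF23 (r = 0.979). KIF2C, KIF11 and KIF23 encode mitotic kinesins and RRM1 a subunit of ribonucleotide reductase. Nearest to the condensin I subunits were KIF23 (r = 0.984), DIAPH3 (r = 0.983), NUSAP1 (r = 0.978), PLK4 (r = 0.974) and RAD21 (r = 0.972). Nearest to the condensin II subunits were MCM10 (r = 0.973), MCM8 (r = 0.972), KIF2C (r = 0.971), MYBL2 (r = 0.970) and BRCA1 (r = 0.970). The libraries of a group share their treatment, and the values carry no p.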

How the data were processed

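RNA of 30 libraries was analysed, 3 for each of 5 siRNA groups in HCT116 and in SW480, grouped by the labels' siRNA and cell line. The submitters' processing notes name the tools RSEM 1.3.3, STAR 2.7.3a and Trimmomatic 0.33 and the build hg38. How the counting treated strand, and the release of the annotation, is not given in the sources used here. Per the file headers, each deposited table lists for every gene an expected count, in which reads matching several genes are split among them, and a TPM, which the authors scaled by transcript length to a fixed sum per library. Expected counts lay more than 1e-09 from a whole number for 9.13% to 13.1% of the listed genes, and were rounded.

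Genes were filtered with filterByExpr, scaled by TMM and tested with edgeR 4.0.16 (quasi-likelihood, robust) under R 4.3.3, on the 15 libraries of a line or, between lines, on all 30, with Benjamini-Hochberg adjustment over all genes. For a target, both siRNAs had to change a gene in the same direction, the larger p was adjusted (it was set to 1 where directions differed), and the size is the mean of both log2 fold changes. The scripts were tested on simulated data. The alternatives were DESeq2 1.42.0, DESeq2's size factors, no filter, a stricter filter, limma 3.58.1 on log2(TPM + 1) and log2(TPM + 0.1) with a TPM of at least 1 in 3 libraries, a replicate block, only the groups compared, and each library left out.

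Replicate pairs differed beyond counting noise (chi-square per gene 1.47 to 21.3 over 30 pairs), so no library was counted as a copy of another. Depth was 7.07 to 18.6 M counts, and errors given as SD are the spread between libraries. An SE is that of edgeR's test, whose estimate of the spread draws on all libraries of the fit. For a target the SE belongs to the mean of both siRNAs, while the adjusted p comes from the larger p of the single siRNAs. The genes, related lists, motifs and markers were chosen with earlier results of these data known. The text names all 8 condensin genes and the 5 genes nearest in pattern. From each related list, up to 3 called genes per target and line with the largest smaller change of both siRNAs were eligible. Only some of these are named. Gene positions are from GENCODE release 29 (GRCh38), which held 58444 of the 60617 identifiers, and promoter sequences from RefSeq (GRCh38.p14).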

Additional observations from a re-analysis of the deposited data

Results flagged for a closer look

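The tested difference in response between HCT116 and SW480, as HCT116 minus SW480 on the log2 scale, was past the threshold (edgeR, Benjamini-Hochberg adjusted) for 5 condensin genes with the BRD8 siRNAs. It was -0.27 (SE 0.11, adjusted p = 0.0482) for SMC2, -0.25 (SE 0.089, adjusted p = 0.0251) for NCAPH and -0.45 (SE 0.083, adjusted p = 6.34e-05) for NCAPD3, whose log2 fold changes were lower in HCT116. It was 0.24 (SE 0.062, adjusted p = 0.00273) for SMC4 and 0.39 (SE 0.11, adjusted p = 0.00562) for NCAPG, whose log2 fold changes were higher in HCT116.

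The same difference with the TIP60 siRNAs was past the threshold for 5 genes, each lower in HCT116. It was -0.51 (SE 0.087, adjusted p = 2.18e-05) for NCAPD2, -0.38 (SE 0.080, adjusted p = 0.000369) for NCAPG2, -0.36 (SE 0.11, adjusted p = 0.0100) for NCAPG, -0.36 (SE 0.082, adjusted p = 0.000990) for NCAPH and -0.31 (SE 0.081, adjusted p = 0.00316) for NCAPD3. Each of these 10 values is the difference of a mean over both siRNAs, and some of these means join changes in opposite directions. With the TIP60 siRNAs this held for NCAPD2, NCAPG2 and NCAPH in SW480 and for NCAPD3 and NCAPG2 in HCT116. With the BRD8 siRNAs it held for NCAPG in HCT116. Only for NCAPD2 and NCAPG2 in SW480 were both of the opposite changes called.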

How the results depend on the processing

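Of the values for single genes and comparisons under settings that kept all libraries, 1418 kept their direction and side of the threshold, 25 gained and 99 lost a call, 8 that were called in one of the fits turned their direction, and 50 changed sign with no call in either fit. Leaving out 1 library changed the sign of 55 further values with no call in either fit. The 8 were on the TPM scale (log2(TPM + 1), then + 0.1). They were NCAPD2 with siBRD8-6 in SW480 (0.35, 0.36), NCAPG with siTIP60-2 in SW480 (0.14, 0.14), and SMC4 between lines for BRD8 (-0.11, -0.12) and for siBRD8-6 (-0.039, -0.041). On both TPM scales the genes called were 3 for BRD8 in HCT116, 1 for BRD8 in SW480, 0 for TIP60 in SW480 and 2 for siTIP60-11 against siTIP60-2 in HCT116. The BRD8 difference between lines called 3 genes with DESeq2, DESeq2's size factors, no filter or only the groups compared. The cause was not tested.

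Leaving out each library in turn gave 4 to 6 called genes for BRD8, 2 to 4 for TIP60 and 6 to 7 for BRD8 against TIP60 in HCT116, and 6 to 7, 2 to 2 and 8 to 8 in SW480. It gave 8 to 8 for siBRD8-36 against siBRD8-6 and 4 to 4 for siTIP60-11 against siTIP60-2 in HCT116, and 7 to 8 and 6 to 7 in SW480. Between lines it gave 3 to 6 for BRD8, 3 to 6 for TIP60 and 7 to 8 for siControl.

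The replicate numbers were not used to pair the samples in the main fit. Deviations of same-numbered libraries correlated at -0.065 to 0.363 in HCT116 (median 0.111) and -0.276 to 0.286 in SW480 (median -0.044). Those of different-numbered libraries correlated at -0.359 to 0.336 (median -0.047) in HCT116 and -0.236 to 0.263 (median 0.013) in SW480. Whether same-numbered HCT116 libraries shared a batch was not tested. With a replicate block, 4 genes were called for TIP60 in HCT116, 4 for the BRD8 difference between lines and 5 for BRD8 in HCT116. Over all genes, the TPM scale called 2313 (+ 1) and 2281 (+ 0.1) in place of 3891 for BRD8 in HCT116, 2722 and 2697 in place of 4437 for TIP60, and 4875 (+ 0.1) in place of 7317 for siTIP60-11 against siTIP60-2. Depth was lowest in SW480, at 7.07 to 11.7 M counts.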
